A study of Nothobranchius furzeri with 12 samples.

Results

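The transcriptomes of red and of yellow tail fins were compared gene by gene in the turquoise killifish (Nothobranchius furzeri), an annual fish of African rain pools that lives for months. The comparison holds 6 of the 12 RNA-seq libraries of the study, 3 from red tails of the strain MZCS002 and 3 from yellow tails of the strain GRZ-BELL, chosen by the colour and strain in their titles. All 15170 of 20788 transcript entries with a mean of at least 10 normalized reads over the 12 libraries were tested. The other 6 libraries came from tail fins of females, 3 per strain, and are used here to mark genes that also differ between the strains without the colour.

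The pigmented part of the fin was cut out of the coloured tails and the matching part out of the females, and oligo-dT-primed cDNA of the DNase-treated RNA was sequenced. Every red fish was of strain MZCS002 and every yellow fish of strain GRZ-BELL, so colour and strain cannot be told apart in these 6 libraries. A number that follows the strain name in the description labels is 1 in all MZCS002 libraries and 2 in all GRZ-BELL libraries, and whatever it stands for cannot be told apart from the strains. The labels do not state the sex of the coloured fish, and age, light cycle and time of collection were not given in the sources used here. The series describes the 3 libraries of a group as biological replicates, and nothing more is stated about the animals behind them.

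Fish colour comes from pigment cells that arise from the neural crest. Melanophores make black melanin in melanosomes, xanthophores hold yellow to red pteridines made from GTP together with carotenoids taken from food, and iridophores reflect light from guanine crystals. The hue of a fin can differ through the number of each cell type, the pigment each cell makes, and the carotenoids it stores.

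Recovered read totals were 13335150, 15282300 and 16968999 in the red libraries and 13259410, 13496657 and 10463861 in the yellow ones. The first principal component of the 6 libraries held 57.5% of the variance, with the red libraries at 41.2 to 75.8 and the yellow ones at -66.2 to -50.5. The second MZCS002 female library stood apart, with a size factor of 0.318, 16400 entries with a read against 17644 to 18667 in the others, and a mean correlation with its group of 0.847 against 0.895 to 0.957. It is in neither tail group but entered the shared estimate of spread. Markers of pigment cells were found in all coloured tails. The 7 matched melanophore markers of 8 summed to 5395 to 10613 normalized reads in red and 6110 to 10485 in yellow tails, against 930.3 to 1761 in the females. The 5 matched xanthophore markers of 6 summed to 37221 to 94511 in red and 10552 to 34340 in yellow tails, and the 5 iridophore markers to 1077 to 1968 in red and 2900 to 7853 in yellow tails. Single genes weighed heavily in these sums. For xanthophores, gch2 alone was at 32889 to 88797 in red and 4351 to 26834 in yellow tails. The other xanthophore markers differed by 1.95 (xdh), 0.16 (csf1ra), -0.75 (pax7a) and -1.23 (pts) on the log2 scale. For iridophores, fhl2a alone was at 452 to 1382 in red and 1964 to 5964 in yellow tails. Every one of the matched pigment cell markers had reads in the tails. None was called for melanophores, 1 was lower in red for xanthophores (pts) and 1 for iridophores (ltk). Over all entries tested, 3.85% were called higher and 3.58% lower in red.

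Red and yellow tails differed at 1127 of the 15170 entries tested, 7.43%, at a Benjamini-Hochberg adjusted p under 0.05 in limma fitted to all 12 libraries. Of these, 584 (3.85%) were higher and 543 (3.58%) lower in red. The same test at an unadjusted p under 0.05 gave 3757 entries. With libraries scaled to equal totals the split was 670 higher and 363 lower. Of the called entries, 244 of the higher and 232 of the lower ones differed by at least 2 on the log2 scale, and 53 and 49 by at least 4. In simulated data of 15081 tested entries, 67, 69 and 64 entries were changed 2-fold, 4-fold and 16-fold. This contrast recovered 7.46%, 59.4% and 100% of them. So few changes make the adjusted cutoff stricter than in the real data, where these shares may be higher. Small differences were seldom called in the simulation, and the sizes among the real calls depend on what the test can detect. The libraries of the groups did not overlap for any of the 584 higher entries or for 542 of the 543 lower ones, against 16.9% of all entries tested with red above yellow and 17.2% with red below (34.1% in all). A call with 3 libraries per group nearly requires this, so it is no further support. A gene symbol was available for 347 of the higher and 232 of the lower entries. Abundant genes were called higher more often than lower. Among the 1805 entries with a mean of at least 1000 over the 6 tail libraries, 87 were higher and 34 lower in red, while among the 2933 with a mean under 50 there were 94 and 156. The count of calls varied with the library left out. It was 382 without red 1, 383 without red 2, 342 without yellow 1 and 580 without yellow 3, and 2616 without MZCS002 female 2. The 1127 were all called without MZCS002 female 2, and 280 of them, 140 in each direction, were called with each of the 12 libraries left out in turn. A limma fit to only the 6 tail libraries called 1767 entries (11.6%), 1086 of the 1127 among them, and of the 1127 edgeR called 1048 and DESeq2 1123 in the same direction.

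**Figure D1:**
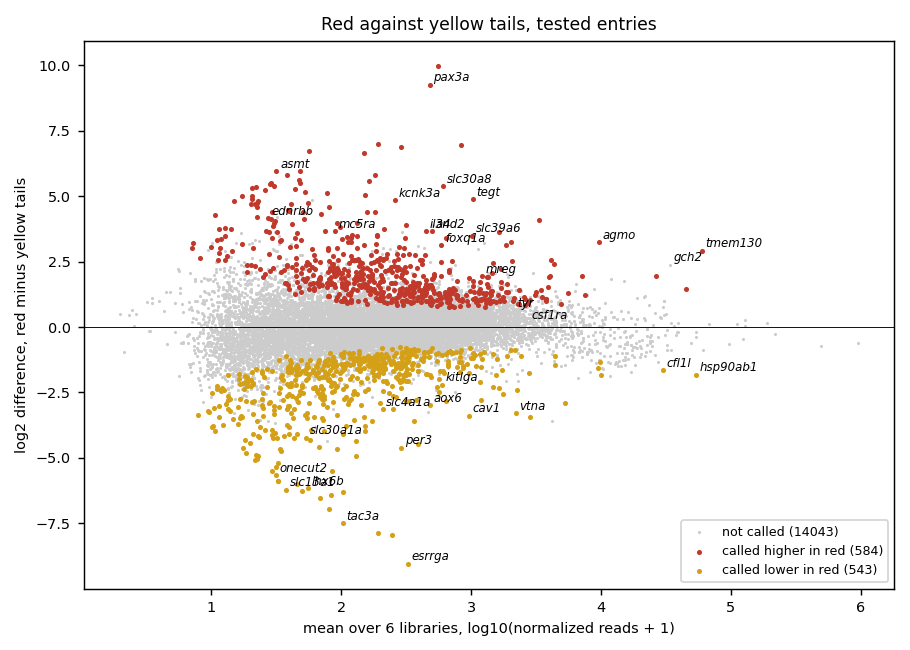
Each point is 1 of the 15170 tested entries, with the mean of the 6 tail libraries on the x axis (log10 of normalized reads + 1) and the red minus yellow log2 difference on the y axis. Red points are the 584 entries called higher and yellow points the 543 called lower in red. The gene pax3a lies near the top at 9.27 and esrrga near the bottom at -9.04.

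Genes at the extremes of the comparison included transcription factors, a hormone enzyme and transporters that were close to silent in 1 of the colours. The gene pax3a, a paired-box transcription factor of the neural crest and of xanthophore precursors, was at 1028, 956 and 889.7 normalized reads in the red libraries and 0, 0 and 2.75 in the yellow ones. All red libraries were high and all yellow libraries held few reads or none. The ratio of means was 1045 (95% counting interval 379.7 to 11340.0), and the log2 difference was 9.27 ± 0.80 (SE; limma adjusted p = 8.6e-05). Levels of asmt, whose enzyme takes the last step of melatonin synthesis, were 60.3, 51.4 and 72.4 in red tails, and no read was found in any yellow or female library. Its mean in red was thus at least 18.9-fold higher against a floor of 3 reads per library (limma adjusted p = 0.00084). Since asmt passed the filter on the mean through red tails alone, a high red mean was a condition of its test. The annexin gene anxa5a was at 74.9, 91.5 and 130.4 in red and 1.00, 8.68 and 0 in yellow tails (log2 difference 5.18 ± 0.67, limma adjusted p = 0.00097). Lack of overlap was a condition for naming genes by the size of their difference. In the other direction, esrrga, an orphan nuclear receptor of the estrogen-related family, had 1 read in the 3 red libraries and lay at 533, 750.2 and 654 in the yellow ones. The ratio of yellow to red was 2412 (counting interval 435 to 95990.0, limma adjusted p = 2.3e-05). The tachykinin gene tac3a, which encodes a neuropeptide, was at 83.3, 293 and 236 in yellow tails and had no read in red ones, at least 84.5-fold lower. Further transcription factor genes were found only or almost only in yellow tails among the tail libraries: lhx6b, of the LIM homeobox family, at 116, 113 and 93.5 in yellow and 0, 2.41 and 0 in red, and onecut2 at 69.3, 52.1 and 60.5 and 0, 0 and 0.754. The gene olfm3a, of the secreted olfactomedin family, was at 146, 92.9 and 55.0 in yellow and 0, 0 and 0.754 in red tails. The limma adjusted p was 0.00019 for tac3a, 0.0012 for lhx6b, 0.0012 for onecut2 and 0.0028 for olfm3a. Each red library held at most 3 reads of any of these 4 genes. The ratio of yellow to red means was 134 for lhx6b (95% counting interval 46.1 to 662), 241 for onecut2 (39.8 to 8921) and 389 for olfm3a (67.5 to 15020.0). Also higher in red were rsph3 of the cilium, mdm1 and fndc4a. The log2 difference of rsph3 was 4.46 ± 0.63, with 5.02, 0.868 and 1.37 normalized reads in yellow tails. With at most 3 reads in yellow tails, the ratio of red to yellow means was 147 for mdm1 (95% counting interval 24.7 to 5537) and 84.8 for fndc4a (19.7 to 4442). Some of these genes leaned the same way between MZCS002 and GRZ-BELL females, without a call. That log2 difference was 2.25 for anxa5a, 2.64 for rsph3, 2.29 for mdm1, 3.04 for fndc4a and -2.35 for olfm3a. The limma adjusted p was 0.13, 0.056, 0.35, 0.19 and 0.27. The genes pax3a, anxa5a, rsph3, esrrga, tac3a, lhx6b, onecut2 and olfm3a kept their calls with each library left out in turn. The call of asmt was lost with a pseudocount of 0.1 (highest adjusted p 0.063). The call of mdm1 was lost without red 1 or 2 or yellow 3 (highest limma adjusted p 0.073) and with a pseudocount of 0.1 (highest adjusted p 0.051). The call of fndc4a was lost without red 1 or 2 or yellow 1 (highest limma adjusted p 0.067).

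For 25 of the 1127 genes, the red-yellow difference was itself called as differing from the MZCS002-GRZ-BELL difference between females, by a test that called 27 entries in all (0.178%). Of the 25, 12 were higher and 13 lower in red, and 20 had a symbol, 9 of the higher and 11 of the lower ones. The 8 of these with the largest difference in each direction are described. Among them, kcnk3a, a potassium leak channel gene, was at 450.3, 642 and 404 in red and 26.1, 11.3 and 13.7 in yellow tails, against 12.6, 0 and 12.9 in MZCS002 females and 21.1, 16.7 and 15.6 in GRZ-BELL females. The red libraries thus stood above all 9 others. The same held for slc30a8, a zinc transporter that loads vesicles, at 958, 1923 and 675 in red and 43.2, 31.3 and 10.99 in yellow tails. The melanocortin receptor gene mc5ra had 176, 150.2 and 166 in red and 16.1, 11.3 and 9.62 in yellow tails, with females in between at 61.1, 28.3 and 101 in MZCS002 and 36.4, 66.6 and 61.8 in GRZ-BELL. Yellow tails were the lowest group for mc5ra and red tails the highest. The forkhead factor gene foxq1a went opposite ways. It was at 2003, 833 and 388 in red and 158, 64.3 and 93.5 in yellow tails, but at 323, 160.3 and 261 in MZCS002 females and 1401, 834 and 1837 in GRZ-BELL females, where limma called it lower in MZCS002 (log2 difference -2.43, adjusted p = 0.038). In yellow tails it was the lowest of the 4 groups. The log2 difference between red and yellow was 4.85 ± 0.80 for kcnk3a, 5.39 ± 0.60 for slc30a8, 3.66 ± 0.44 for mc5ra and 3.13 ± 0.53 for foxq1a (limma adjusted p 0.0042, 0.00033, 0.00066 and 0.005). The call of kcnk3a was lost with a pseudocount of 0.1 (highest adjusted p 0.054).

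Lower in red tails by this test was cav1, which encodes caveolin of the cell membrane's caveolae, at 210.1, 107 and 183 in red and 2240.2, 1184 and 1798 in yellow tails. Females lay at 874, 915 and 1317 in MZCS002 and 1906, 1540.1 and 1695 in GRZ-BELL, so that the red libraries were the lowest of all 12. The gene vtna, which encodes vitronectin of blood plasma and matrix, was at 238, 390.3 and 425 in red and 2436, 7817 and 1976 in yellow tails, and at 13.5, 25.1 and 25.1 and 12.9, 12.5 and 11.7 in the females of MZCS002 and GRZ-BELL. Both colours were thus above the females, and yellow above red. The cation channel gene trpc4a was at 4.30, 7.23 and 13.6 in red and 77.3, 90.3 and 60.5 in yellow tails, and armh4 at 11.2, 26.5 and 23.4 and 102, 110.3 and 165. The red minus yellow log2 difference was -3.38 ± 0.31 for cav1, -3.30 ± 0.46 for vtna, -3.14 ± 0.47 for trpc4a and -2.62 ± 0.48 for armh4 (limma adjusted p 0.00012, 0.0015, 0.0023 and 0.0075). These 16 genes all kept their red-yellow calls with each library left out in turn, while for 12 of them the call of the difference against the females was lost without at least 1 library.

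**Figure D2:**
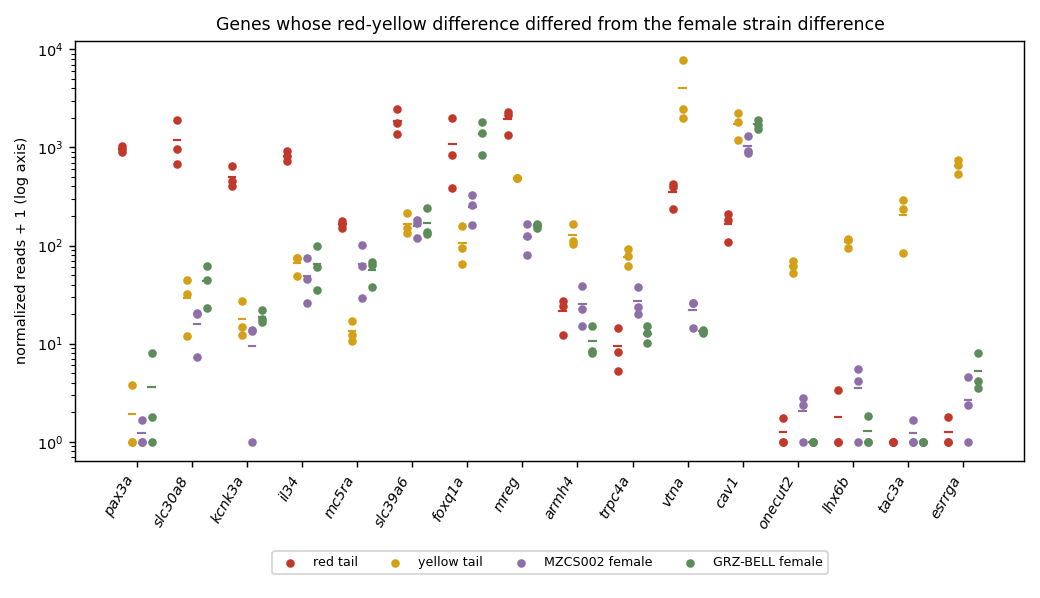
Normalized reads + 1 on a log axis for 16 genes, the 8 with a symbol and the largest difference in each direction among those whose red-yellow difference was called as differing from that between females, 3 points per group with a bar at the mean. The genes are in order of their red minus yellow difference, from pax3a at 9.27 to esrrga at -9.04.

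The list of melanin and melanosome genes, which also holds the ligand gene kitlga, had calls in both directions. Of 22 tested, 4 were higher and 1 lower in red, and the median log2 difference was 0.34, against 7.43% called and a median of -0.01 over all entries tested. Red libraries lay all above the yellow ones for 7 of the 22 and all below for 7. Those shares over all entries tested were 16.9% and 17.2%. The count of 5 calls was 11 in DESeq2, 8 in limma on only the 6 tail libraries, 12 without MZCS002 female 2, 3 without GRZ-BELL female 1 or 2, and 2 without red 1, red 2, yellow 1 or yellow 3. In such bulk samples, fewer cells of a type and less RNA per cell cannot be told apart. The gene mreg, whose product melanoregulin acts in melanosome transport, was at 1352, 2291 and 2142 in red and 489.8, 489 and 482 in yellow tails. Its 3 yellow values were nearly equal and all below the red ones (log2 difference 1.95 ± 0.29, limma adjusted p = 0.0022). The small GTPase gene rab32a, which serves the delivery of enzymes to melanosomes, was at 1633, 1579.6 and 1137 in red and 646, 871 and 502.99 in yellow tails (log2 difference 1.12 ± 0.25). The tetraspanin genes tspan36, active in zebrafish pigment cells, and tspan10 were higher by 1.93 ± 0.52 and 1.44 ± 0.38. Red 3 had the lowest red value of tspan36, at 7163, and still exceeded the highest yellow value, 3125. The gene that went the other way was kitlga, which encodes the Kit ligand that melanophores need to migrate and survive. It was at 187, 222 and 224 in red and 852, 1253 and 863 in yellow tails, without overlap (log2 difference -2.20 ± 0.23, limma adjusted p = 0.0002). MZCS002 females were at 198, 211 and 198 and GRZ-BELL females at 349, 448 and 338, the same order, although that difference of -0.89 was not called (limma adjusted p = 0.075). The limma adjusted p was 0.017 for rab32a, 0.04 for tspan36 and 0.039 for tspan10. Of the enzyme and melanosome genes not called, tyrp1b differed by 0.35 (95% interval -0.45 to 1.15), mlana by 0.52 (-0.15 to 1.20) and oca2, a melanosome pH regulator, by -1.85 (-3.12 to -0.57). The yellow libraries of oca2 were at 65.2, 82.5 and 35.7 and the red ones at 14.6, 19.3 and 12.8, which did not overlap, and edgeR and DESeq2 called it (adjusted p 0.036 and 0.002). The agouti signalling gene asip1, an antagonist of melanocortin receptors, had 6.03, 7.23 and 18.1 in red and 11.04, 0.868 and 12.4 in yellow tails, which overlapped. The genes mreg and kitlga kept their calls with each library left out in turn. The call of rab32a was lost without red 1 or 2 or yellow 1 or 3 (highest limma adjusted p 0.081). The call of tspan36 was lost without GRZ-BELL female 1 or 2, red 1 or 2 or any yellow library (highest limma adjusted p 0.15). The call of tspan10 was lost without any GRZ-BELL female library, any red library or yellow 1 or 3 (highest limma adjusted p 0.17) and with no filter on low values or with quantile normalization (highest adjusted p 0.057).

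Among genes of pteridine pigments and xanthophores, 1 of 14 tested was higher and 2 were lower in red, with a median of -0.16. The shares over all entries tested were 3.85% called higher and 3.58% called lower. The higher gene was il34, a cytokine gene whose product binds the Csf1 receptor on which xanthophores depend, at 823, 921 and 734 in red and 74.3, 47.8 and 74.2 in yellow tails. All red libraries were above all 9 other libraries, the females of MZCS002 being at 44.9, 25.1 and 73.4 and those of GRZ-BELL at 97.5, 59.1 and 34.4 (red minus yellow log2 difference 3.66 ± 0.43, limma adjusted p = 0.00048). The lower genes both encode enzymes. The aldehyde oxidase gene aox6 was at 80.9, 103 and 80.7 in red and 606, 1681 and 339 in yellow tails. Yellow 2 was the highest and the red values lay close together, below all yellow ones (log2 difference -2.99 ± 0.55, limma adjusted p = 0.0074). The gene pts, whose enzyme acts on the product of GTP cyclohydrolase, was at 705.1, 1262 and 866 in red and 1554, 2234 and 2845 in yellow tails (log2 difference -1.23 ± 0.28, limma adjusted p = 0.022). The enzyme of the preceding step is encoded by gch2, which was at 42967, 88797 and 32889 in red and 7480.4, 26834 and 4351 in yellow tails. The lowest red value of gch2 thus exceeded the highest yellow one, and the difference of 2.39 (95% interval 0.06 to 4.72) was not called in the 12-library fit (limma adjusted p = 0.19), edgeR or DESeq2, whereas limma on only the 6 tail libraries called it (adjusted p = 0.041). The xanthine dehydrogenase gene xdh, of purine and pteridine oxidation, was at 926, 944 and 599 in red and 184, 325 and 151 in yellow tails, again without overlap. Its difference of 1.95 (0.63 to 3.27) was not called in the 12-library fit (limma adjusted p = 0.071) or in edgeR, and was called higher by DESeq2 (adjusted p = 0.0083) and by limma on only the 6 tail libraries (0.0062). Yellow 2 held the highest yellow value of gch2, aox6, pax7a and csf1ra. The receptor genes csf1ra and csf1rb differed by 0.16 (-0.57 to 0.89) and -0.31 (-0.96 to 0.33). The lineage factor pax7a differed by -0.75 (-1.46 to -0.05, limma adjusted p = 0.17), with 585, 539.7 and 493 in red and 731, 1512 and 676 in yellow tails. The genes il34 and aox6 kept their calls with each library left out in turn. The call of pts was lost without red 1 or 3 or yellow 2 or 3 (highest limma adjusted p 0.097).

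None of 7 tested genes of carotenoid uptake and handling was called by limma (6-library fit 2, edgeR 1, DESeq2 1), and the median was 0.08. At an unadjusted p under 0.05 limma gave 2 of the 7, beside 3757 of all 15170 entries tested. The carotenoid-cleaving enzyme gene bco1 was at 148, 172 and 296 in red and 403, 626 and 289 in yellow tails, a difference of -1.09 (95% interval -2.16 to -0.02). The lipid droplet gene plin6, which serves carotenoid storage in zebrafish xanthophores, was at 956, 1095 and 942 and 356, 751 and 360.1, a difference of 1.12 (-0.39 to 2.62) with no overlap that limma on only the 6 tail libraries called (adjusted p = 0.043). The lipase gene lpla differed by 0.08 (-0.67 to 0.84), with 46.5, 41.0 and 45.2 in red and 48.2, 32.997 and 45.4 in yellow tails. Intervals of this width hold differences of more than 1 on the log2 scale for bco1 and plin6.

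Genes of guanine crystals and iridophores were called once in each direction among 16 tested, with a median of -0.59. Over all entries tested, 3.85% were called higher and 3.58% lower. The endothelin receptor gene ednrbb was at 70.6, 53.8 and 26.4 in red and 1.00, 0.868 and 4.12 in yellow tails. The yellow libraries held few reads of it, whereas females were at 68.3, 126 and 9.52 in MZCS002 and 38.8, 27.5 and 69.6 in GRZ-BELL (red minus yellow log2 difference 4.15 ± 0.81, limma adjusted p = 0.01). The receptor tyrosine kinase gene ltk, which sets the iridophore fate in zebrafish, was lower in red, at 51.7, 57.0 and 45.2 against 144, 193 and 121 (log2 difference -1.53 ± 0.41, limma adjusted p = 0.039). The purine phosphorylase genes pnp4a and pnp5a were not called by limma fitted to all 12 libraries. The gene pnp4a was at 173, 232 and 206 in red and 496, 852 and 320.2 in yellow tails, without overlap, a difference of -1.34 (95% interval -2.81 to 0.13). It was called lower by edgeR (adjusted p = 0.04), DESeq2 (0.0058) and limma on only the 6 tail libraries (0.035). The gene pnp5a differed by 0.23 (-1.03 to 1.49), with groups that overlapped. Levels of fhl2a were 452, 1183 and 1382 in red and 2673, 5964 and 1964 in yellow tails, without overlap, a difference of -1.80 (-3.43 to -0.17) that DESeq2 (adjusted p = 0.046) and limma on only the 6 tail libraries (0.041) called and the 12-library fit did not. The differences of -0.61 (-1.31 to 0.09) for the factor tfec and -0.69 (-1.77 to 0.39) for alx4a were called by none of these tools. The count for the list was 6 in DESeq2, 5 in limma on only the 6 tail libraries, 4 without MZCS002 female 2 or with a pseudocount of 10, and 0 without red 1 or yellow 1. The call of ednrbb was lost without red 1 or yellow 1 (highest limma adjusted p 0.053). The call of ltk was lost without any GRZ-BELL female library, any red library or any yellow library (highest limma adjusted p 0.12) and with no filter on low values or with equal totals (highest adjusted p 0.092). Of 11 genes of the neural crest and pigment progenitors, pax3a was the 1 called, while the median of the list was -0.42. Of 5 tested genes of melanocortin and pigment hormone signalling, mc5ra was the 1 called, and of 6 genes of pattern channels, gap junctions and adhesion, kcnk3a. The apolipoprotein D gene apoda.1 was at 2058, 3657 and 2809 in red and 6002, 9910.3 and 7094 in yellow tails, which did not overlap, and its difference of -1.44 (95% interval -3.14 to 0.26) was called by limma on only the 6 tail libraries (adjusted p = 0.017) but not in the 12-library fit, edgeR or DESeq2.

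**Figure D3:**
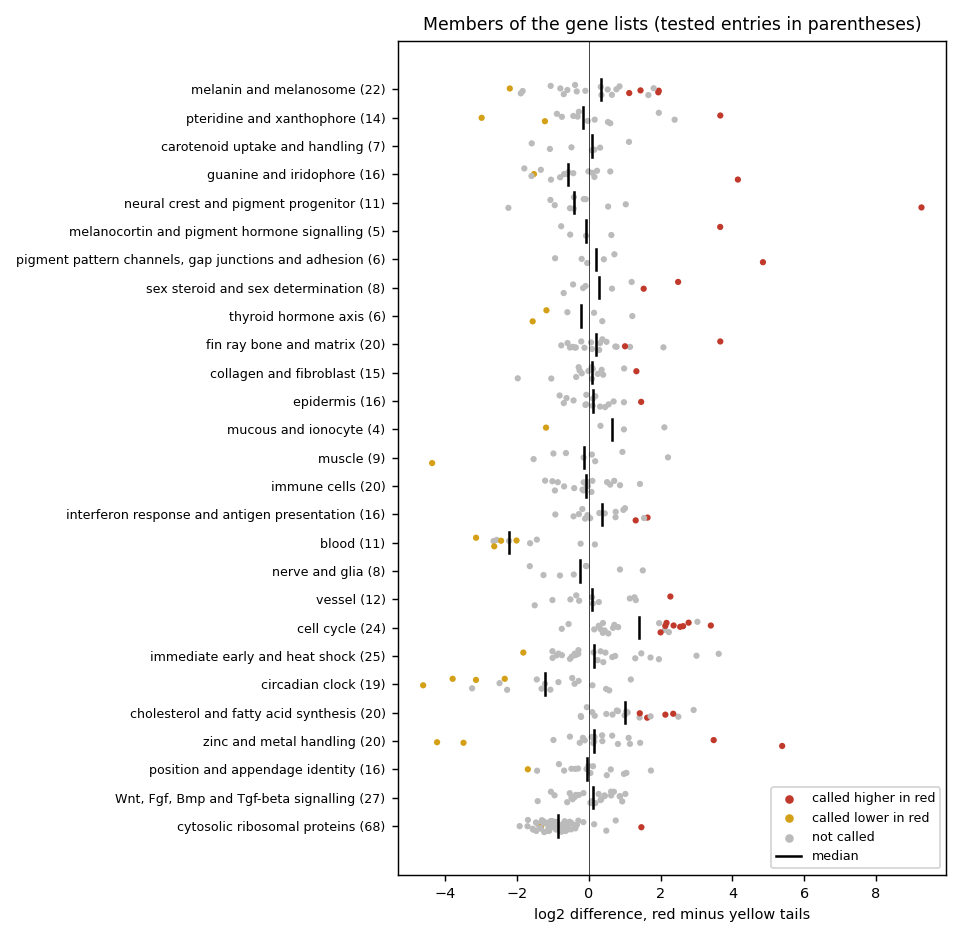
Red minus yellow log2 difference on the x axis for the tested members of each gene list, with the number tested in parentheses. Red points were called higher and yellow points lower in red, grey points were not called, and the black bar is the median of the list, which was -2.23 for blood, -1.22 for the circadian clock, 1.39 for the cell cycle and 1.02 for cholesterol and fatty acid synthesis.

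Hormone genes were called in both directions, where 3.85% of all entries tested were called higher and 3.58% lower. Of 8 tested genes of sex steroids and sex determination, 2 were higher in red: hsd3b1, a hydroxysteroid dehydrogenase of steroid hormone synthesis, at 863, 1393 and 679 in red and 174, 303 and 86.6 in yellow tails, and srd5a3, of the steroid reductase family, at 233, 262 and 135 and 54.2, 62.5 and 98.9. Neither pair of groups overlapped. Log2 differences were 2.49 ± 0.61 and 1.53 ± 0.32 (limma adjusted p 0.03 and 0.014). The androgen receptor gene ar was at 887, 1142 and 872 in red and 583, 782 and 507.1 in yellow tails, a difference of 0.64 (95% interval 0.01 to 1.28) that was not called. Of 6 genes of the thyroid hormone axis, which sets pigment cell numbers in zebrafish, 2 were lower in red. Among them was rxrba, a retinoid X receptor gene whose product pairs with thyroid hormone receptors, at 90.4, 153 and 161 in red and 350.3, 451 and 372 in yellow tails (log2 difference -1.57 ± 0.31, limma adjusted p = 0.011). All yellow libraries of rxrba were above all red ones. The call of hsd3b1 was lost without red 1 or 2 or yellow 1 or 3 (highest limma adjusted p 0.13). The call of srd5a3 was lost without red 1 or 2 or yellow 1 (highest limma adjusted p 0.077). The call of rxrba was lost without red 1 (highest limma adjusted p 0.053).

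Of 11 tested genes of blood, 4 were lower in red tails and none higher, 8 had yellow libraries all above the red ones, and the median log2 difference was -2.23, against -0.34 between the females. Over all entries tested, 3.58% were called lower and 17.2% had yellow libraries all above the red ones. The anion exchanger gene slc4a1a was at 62.0, 29.7 and 30.9 in red and 558, 221 and 342 in yellow tails. The carbonic anhydrase gene cahz was at 60.3, 38.5 and 35.4 and 313, 137 and 328, and the erythroid transcription factor gene gata1a at 16.4, 5.62 and 7.54 and 113, 26.1 and 75.6. For all of them red libraries were low and yellow 2 was the lowest yellow library. Log2 differences were -3.14 ± 0.52 for slc4a1a, -2.45 ± 0.46 for cahz, -2.64 ± 0.68 for gata1a and -2.02 ± 0.52 for tal1, a blood stem cell factor (limma adjusted p 0.0043, 0.0093, 0.034 and 0.034). The 2 matched red blood cell markers of 4, slc4a1a and alas2, summed to 57.0 to 146 in red and 373 to 1039 in yellow tails. Entries for the globin markers hbaa1 and hbba1 were not matched, and the part of blood left in the cut tissue in these differences was not tested. By library, the median of the list relative to the 6 tail libraries was -0.32, -1.72 and -1.51 in red and 1.63, 0.13 and 1.26 in yellow tails. The count of calls was 1 without yellow 1, 2 without red 2, red 3 or yellow 3, and 9 without MZCS002 female 2. It was 7 in the fit to only the 6 tail libraries, 8 in DESeq2 and 2 with a minimum mean of 50. The gene slc4a1a kept its call with each library left out in turn. The call of cahz was lost without yellow 1 (highest limma adjusted p 0.053). The call of gata1a was lost without any red library or yellow 1 or 3 (highest limma adjusted p 0.16) and with equal totals (highest adjusted p 0.054). The call of tal1 was lost without GRZ-BELL female 1 or 2, red 2 or 3 or yellow 1 or 3 (highest limma adjusted p 0.16).

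Of 24 cell cycle genes, 8 were higher in red tails and none lower, against 3.85% called higher over all entries tested, and the median was 1.39. The kinase gene cdk1, which drives entry into mitosis, was at 1157, 1503 and 768 in red and 95.3, 248 and 46.7 in yellow tails. Red 3 was the lowest red and yellow 2 the highest yellow library, and the groups did not overlap (log2 difference 3.40 ± 0.57, limma adjusted p = 0.0047). Also higher were kif23, a motor of cell division, at 183, 198 and 142 against 13.0, 52.1 and 20.6, the mitotic cyclin gene ccnb2 at 70.6, 118 and 66.3 against 8.03, 38.2 and 10.99, and the polo-like kinase gene plk1 at 372, 387 and 278 against 66.2, 149 and 46.7. Yellow 2 was again the highest yellow library. Their log2 differences were 2.78 ± 0.68, 2.36 ± 0.53 and 2.13 ± 0.52 (limma adjusted p 0.028, 0.019 and 0.029). The replication helicase genes mcm2, mcm4, mcm5, mcm6 and mcm7, in the same list, were not called and differed by 0.15 to 0.71. The list leaned the same way between the strains without the colour, with a median of 1.24 between females. Of its red-yellow calls, 1 was also called there. By the median of the list, the female libraries did not separate by strain. Relative to the tail libraries, the median of the list was 0.26, 1.44 and 0.64 in MZCS002 females. In GRZ-BELL females it was -0.69, -0.89 and 0.35. The highest value came from MZCS002 female 2, the library that stood apart, and GRZ-BELL female 3 lay above MZCS002 female 1. The count of red-yellow calls was 1 without red 1, red 2 or yellow 3, 2 without yellow 1, 4 without red 3, 5 without GRZ-BELL female 1 and 5 in edgeR. The gene cdk1 kept its call with each library left out in turn. The calls of kif23, ccnb2 and plk1 were lost without red 1 or 2 or yellow 1 or 3 (highest limma adjusted p 0.13).

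Of 19 tested circadian clock genes, 4 were lower in red tails and none higher, 11 had yellow libraries all above the red ones, and the median was -1.22, against -0.07 between females. The shares over all entries tested were 3.58% called lower and 17.2% with yellow libraries all above the red ones. In the other direction, 4 of the 19 had a positive difference, and 2 had red libraries all above the yellow ones. That last share was 16.9% over all entries tested. The repressor gene per3 was at 11.2, 41.76 and 19.6 in red and 689, 419 and 548 in yellow tails. MZCS002 females were at 30.6, 40.9 and 1114 and GRZ-BELL females at 10.6, 28.3 and 13.3, so that MZCS002 female 3 alone was as high as the yellow tails. The repressor gene per1b showed the same: 17.2, 20.1 and 13.6 in red, 405, 109 and 334 in yellow tails, 26.1, 34.6 and 530.1 in MZCS002 females and 44.6, 42.5 and 14.1 in GRZ-BELL females. The gene ciarta, which encodes a repressor of the clock's activators, was at 11.2, 7.23 and 3.02 in red and 86.3, 40.8 and 75.6 in yellow tails. The clock-driven transcription factor gene dbpa was at 19.8, 24.9 and 12.1 in red and 119, 53.8 and 139 in yellow tails. Log2 differences were -4.62 ± 1.03 for per3, -3.80 ± 0.92 for per1b, -3.15 ± 0.61 for ciarta and -2.35 ± 0.59 for dbpa (limma adjusted p 0.018, 0.028, 0.01 and 0.032). The median of the list by library was -0.32, -0.42 and -1.10 in red tails, 0.85, 0.36 and 0.56 in yellow tails and 0.80 in MZCS002 female 3. The time of day at which each fish was sampled was not given in the sources used here, and its part in these differences was not tested. The count of calls was 0 without yellow 1, 1 without red 1 or yellow 3, 2 without red 2 or red 3, 9 without MZCS002 female 2 and 7 in the fit to only the 6 tail libraries. The call of per3 was lost without red 1 or yellow 1 or 3 (highest limma adjusted p 0.083). The call of per1b was lost without any red library or yellow 1 or 3 (highest limma adjusted p 0.12). The call of ciarta was lost without yellow 1 (highest limma adjusted p 0.059). The call of dbpa was lost without any red library or yellow 1 or 3 (highest limma adjusted p 0.13) and with equal totals (highest adjusted p 0.054).

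Of 20 tested genes of cholesterol and fatty acid synthesis, 4 were higher in red tails and none lower, 11 had red libraries all above the yellow ones, and the median was 1.02, against 0.06 between females. The shares over all entries tested were 3.85% called higher and 16.9% with red libraries all above the yellow ones. The sterol isomerase gene ebp was at 155, 201 and 179 in red and 23.1, 63.4 and 42.6 in yellow tails, and lss, whose enzyme closes the sterol rings, was at 81.8, 116 and 119 and 25.1, 33.9 and 42.6. The sterol dehydrogenase gene nsdhl was at 32.7, 49.8 and 22.6 and 3.01, 8.68 and 6.87, and fdps, which makes farnesyl diphosphate, at 356, 394 and 336 and 103, 232 and 102. In each of the 4 the lowest red library exceeded the highest yellow one. Log2 differences were 2.13 ± 0.41, 1.62 ± 0.31, 2.35 ± 0.60 and 1.42 ± 0.31 (limma adjusted p 0.0094, 0.0095, 0.034 and 0.018). The fatty acid enzymes fasn, scd and elovl6 were not called and differed by 0.66, -0.23 and 0.09. The count of calls was 1 without red 2 or yellow 1, 2 without red 1 or yellow 3, 8 without MZCS002 female 2 and 9 in the fit to only the 6 tail libraries. The gene ebp kept its call with each library left out in turn. The call of lss was lost without red 2 or yellow 1 (highest limma adjusted p 0.055). The call of nsdhl was lost without red 1 or 2 or yellow 1 or 3 (highest limma adjusted p 0.14) and with a pseudocount of 10 (highest adjusted p 0.05). The call of fdps was lost without red 1 or 2 or yellow 1 or 3 (highest limma adjusted p 0.096).

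**Figure D4:**
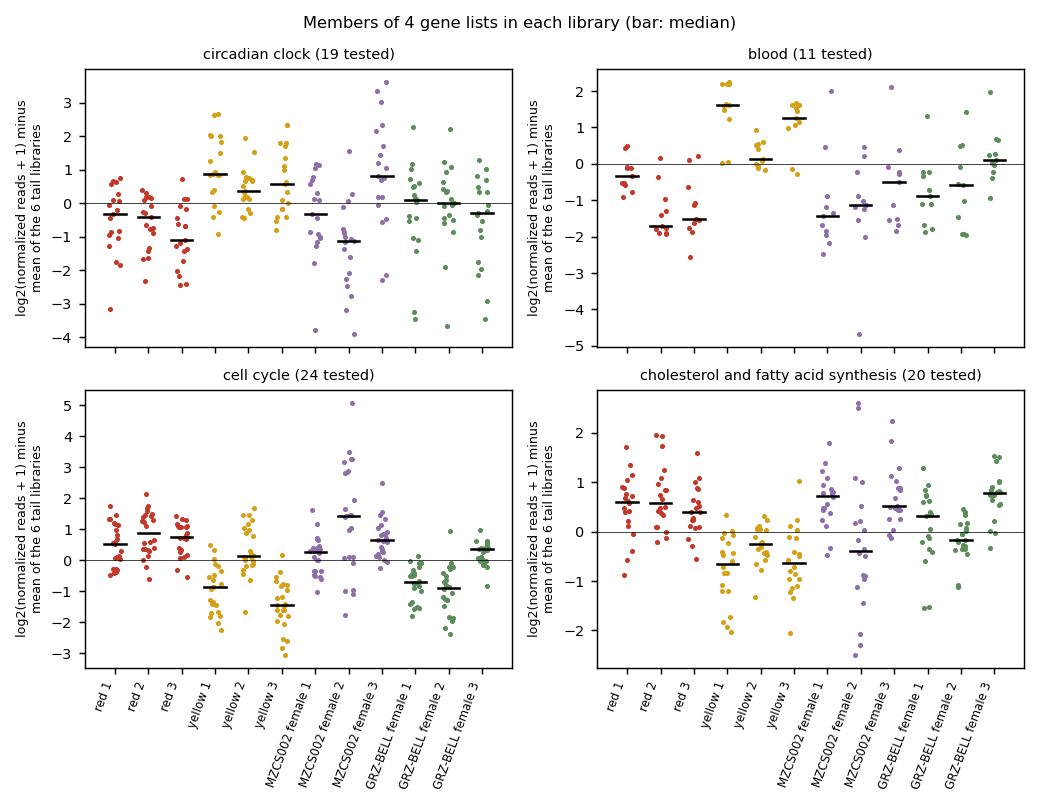
Log2(normalized reads + 1) of each tested member of 4 gene lists in each library, less its mean over the 6 tail libraries, with a bar at the median. By the median, the red tails lie below the yellow ones for the circadian clock and blood and above them for the cell cycle and cholesterol synthesis. The median of MZCS002 female 3 is at 0.80 for the clock.

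Zinc transporter genes were called in both directions, with 2 of 20 genes of metal handling higher and 2 lower in red and a median of 0.15. Over all entries tested, 3.85% were called higher and 3.58% lower. Beside slc30a8, the importer gene slc39a6 was higher, at 1384, 2471 and 1755 in red and 216, 148 and 133 in yellow tails, where females lay at 119, 179 and 171 in MZCS002 and 239.6, 137 and 131 in GRZ-BELL (red minus yellow log2 difference 3.48 ± 0.32, limma adjusted p = 0.00012). The exporter gene slc30a1a was at 0.861, 0.803 and 34.7 in red and 120.4, 79.9 and 79.7 in yellow tails. Red 1 and red 2 held 1 read each and red 3 stood apart from them, though below all yellow libraries (log2 difference -4.23 ± 0.91, limma adjusted p = 0.015). The ratio of yellow to red means was 7.7, and the log2 difference was -2.93 in edgeR and -2.94 in DESeq2. The vesicle zinc transporter gene slc30a2 was at 0, 5.62 and 0.754 and 32.1, 20.8 and 21.99 (log2 difference -3.49 ± 0.89, limma adjusted p = 0.033). Its level in females was 1.80, 0 and 9.52 in MZCS002 and 51.7, 34.2 and 21.9 in GRZ-BELL. That difference of -3.50 had the same size and was not called (limma adjusted p = 0.072). The gene slc39a6 kept its call with each library left out in turn. The call of slc30a1a was lost without red 1 or 2 or yellow 1 (highest limma adjusted p 0.076) and in edgeR (highest adjusted p 0.065). The call of slc30a2 was lost without GRZ-BELL female 1 or 2, red 1 or 3 or any yellow library (highest limma adjusted p 0.13) and with a pseudocount of 0.1 (highest adjusted p 0.086).

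Of 20 genes of fin ray bone and matrix, 2 were higher in red, where 3.85% of all entries tested were called higher and 3.58% lower. The actinodin gene and2, which encodes a protein of the fibres that stiffen the fin edge, was at 821, 1079 and 856 in red and 53.2, 115 and 59.1 in yellow tails (log2 difference 3.66 ± 0.64, limma adjusted p = 0.0058). The females were at 277, 157 and 65.9 in MZCS002 and 307, 97.5 and 742 in GRZ-BELL. The highest female value thus lay below all red libraries and above all yellow ones. The homeobox gene msx1a, of the Msx family, was at 1871, 1368 and 1145 and 689.5, 686 and 763 (log2 difference 1.01 ± 0.26). Single members were called in the lists of collagen and fibroblasts, where mfap5, of elastic microfibrils, was higher by 1.32 ± 0.25, and of epidermis, where fras1, of the skin's basement membrane, was higher by 1.46 ± 0.28. The vessel list had 1 of 12, plvapb, a gene of fenestrated vessels, higher by 2.27 ± 0.49. Of 4 mucous cell and ionocyte genes the bicarbonate transporter slc4a4b was lower (-1.19 ± 0.33), and of 16 genes of position and appendage identity hoxa11b (-1.70 ± 0.48). The limma adjusted p was 0.038 for msx1a, 0.0088 for mfap5, 0.0094 for fras1, 0.016 for plvapb, 0.044 for slc4a4b and 0.049 for hoxa11b. Females of the strains differed the same way, without overlap or call, for plvapb (2.06), mfap5 (0.65) and hoxa11b (-1.29). The limma adjusted p there was 0.056, 0.24 and 0.23. Between females fras1 (-0.62) and msx1a (-0.43) leaned the opposite way, and slc4a4b differed by -0.04. The genes and2 and fras1 kept their calls with each library left out in turn. The call of msx1a was lost without GRZ-BELL female 3, red 1 or 2 or any yellow library (highest limma adjusted p 0.14) and with equal totals or with quantile normalization (highest adjusted p 0.064). The call of mfap5 was lost without red 2 (highest limma adjusted p 0.051). The call of plvapb was lost without red 2 or yellow 3 (highest limma adjusted p 0.068). The call of slc4a4b was lost without MZCS002 female 1, any GRZ-BELL female library, red 1 or 2 or yellow 1 or 3 (highest limma adjusted p 0.18) and in limma on only the 6 tail libraries, with no filter on low values or with equal totals (highest adjusted p 0.084). The call of hoxa11b was lost without MZCS002 female 1 or 3, any GRZ-BELL female library, red 1 or 2 or any yellow library (highest limma adjusted p 0.16) and in edgeR, in limma on only the 6 tail libraries, with no filter on low values, with a minimum mean of 50, with a pseudocount of 0.1, with equal totals or with quantile normalization (highest adjusted p 0.073). The medians of these 6 lists lay between -0.04 and 0.65, and that of position and appendage identity, the lowest, turned positive with libraries scaled to equal totals.

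Of 16 genes of the interferon response and antigen presentation, 2 were higher in red, both of antigen processing. The shares over all entries tested were 3.85% called higher and 3.58% called lower. The immunoproteasome gene psmb8a was at 605, 457 and 464 in red and 233, 205 and 177 in yellow tails, and the peptide transporter gene tap1 at 245, 144 and 78.4 and 35.1, 41.7 and 60.5 (log2 differences 1.30 ± 0.28 and 1.63 ± 0.38, limma adjusted p 0.015 and 0.023). No red library overlapped a yellow one in either. None of 20 immune cell genes, 8 nerve and glia genes or 27 genes of Wnt, Fgf, Bmp and Tgf-beta signalling was called by limma. At an unadjusted p under 0.05 limma gave 3, 1 and 5 of them, beside 3757 of all 15170 entries tested. DESeq2 called 2 immune cell genes, no nerve and glia gene and 1 signalling gene, and edgeR called none of the 55. Of 25 immediate early and heat shock genes, which handling of tissue can alter, hsp90ab1, the constitutive cytosolic chaperone, was lower, at 18445, 22022 and 32642 against 84659, 80505 and 87016 (log2 difference -1.83 ± 0.46, limma adjusted p = 0.034). Females were at 59203, 171828 and 73052 in MZCS002 and 134852, 121084 and 72427 in GRZ-BELL. The count for this list was 8 in DESeq2, 2 in edgeR, 4 without MZCS002 female 2 and 0 without red 1, red 2 or any yellow library. Its median by library was 1.00 in red 1, -0.37 in red 2 and -0.19 in red 3, and 0.25, -0.71 and -0.05 in the yellow libraries, relative to the 6 tail libraries. Red 1 was the highest of the 12 libraries in this median, and the part of handling in the red-yellow differences was not tested. Of 68 cytosolic ribosomal protein genes, a list added after their values were seen, 1 was higher and 1 lower in red. The lower one was rpl13a, at 3289.8, 5364 and 9241 against 14876, 11727 and 14871 (log2 difference -1.33 ± 0.37, limma adjusted p = 0.045). The list's median was -0.87, against 0.635 between females. By library it was -1.01, -0.42 and 0.16 in red and 0.32, -0.04 and 1.03 in yellow tails, so that red 3 lay above yellow 2. The list's count of calls ran from 0 to 22 over the alternatives, with 12 without red 3, 19 without MZCS002 female 2 and 22 in DESeq2. The call of psmb8a was lost without red 1 or 2 or yellow 3 (highest limma adjusted p 0.069). The call of tap1 was lost without red 1 or 2 or yellow 1 or 2 (highest limma adjusted p 0.11). The call of hsp90ab1 was lost without red 1 or 2 or any yellow library (highest limma adjusted p 0.13) and with no filter on low values or with quantile normalization (highest adjusted p 0.1). The call of rpl13a was lost without MZCS002 female 1, any GRZ-BELL female library, red 1 or 2 or any yellow library (highest limma adjusted p 0.16) and in edgeR or with no filter on low values (highest adjusted p 0.066).

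The most abundant of the called genes included tmem130, of a transmembrane protein, at 118865, 152140.2 and 47647 in red and 9897, 19552 and 10413 in yellow tails. Red 3 was the lowest red library and still above the highest yellow one (log2 difference 2.91 ± 0.61, limma adjusted p = 0.013). The gene agmo encodes an ether lipid hydroxylase that needs tetrahydrobiopterin, a product of the pteridine pathway. It was at 18189.7, 21737 and 11859.8 in red and 1569, 3270.2 and 1091 in yellow tails, and at 339, 59.7 and 369 in MZCS002 and 509, 311 and 346 in GRZ-BELL females (red minus yellow log2 difference 3.24 ± 0.60, limma adjusted p = 0.008). Both colours exceeded all females for agmo and tmem130. Also higher were the arginine methyltransferase gene prmt1 (1.29 ± 0.26) and slc3a2a, the heavy chain of amino acid transporters (1.96 ± 0.51). Lower in red were the cofilin-like gene cfl1l of actin turnover, at 9416, 12574 and 21533 against 38771, 30631 and 66089, selenop, which encodes a selenium carrier, at 2585, 1802 and 2539 against 7608, 3935 and 8015, and abracl (-0.88 ± 0.21). The log2 differences of cfl1l and selenop were -1.65 ± 0.41 and -1.45 ± 0.37. The limma adjusted p was 0.012 for prmt1, 0.038 for slc3a2a, 0.03 for cfl1l, 0.033 for selenop and 0.025 for abracl. The gene agmo kept its call with each library left out in turn. The call of tmem130 was lost without red 1 or 2 or yellow 1 or 3 (highest limma adjusted p 0.069). The call of prmt1 was lost without red 2 or yellow 1 (highest limma adjusted p 0.069). The call of slc3a2a was lost without any GRZ-BELL female library, red 1 or 2 or any yellow library (highest limma adjusted p 0.14). The call of cfl1l was lost without red 1 or 2 or yellow 1 or 3 (highest limma adjusted p 0.11) and with no filter on low values (highest adjusted p 0.058). The call of selenop was lost without any red library or yellow 1 or 3 (highest limma adjusted p 0.14) and with equal totals (highest adjusted p 0.061). The call of abracl was lost without red 1 or 2 or any yellow library (highest limma adjusted p 0.11) and with equal totals (highest adjusted p 0.085).

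A part of the red-yellow differences was shared with the females. Between MZCS002 and GRZ-BELL females limma called 264 entries (1.74%), 124 higher (0.817%) and 140 lower (0.923%) in MZCS002, and 160 entries were called in the same direction in both comparisons, 78 higher and 82 lower in red. These were 14.2% of the red-yellow calls and 60.6% of the female calls, and 1 entry in each direction was called the opposite way. The comparisons share no library but use the same spread per gene. Of the 584 higher genes, 427 had the same sign between females, with a median female log2 difference of 0.46 beside a median of 1.76 between the colours. Of the 543 lower genes, 400 had the same sign, with medians of -0.52 and -1.80. Both sets were selected by the red-yellow difference, so the sizes of these medians cannot be compared. Of the 264 female calls, 243 had the same sign between the colours, and their median absolute female log2 difference was 2.65. Female differences within 0.5 of 0 were found for 264 higher and 223 lower genes. Across the 15170 entries, which are not independent replicates, the differences correlated at Pearson r = 0.439 and Spearman rho = 0.261. Without MZCS002 female 2 the shared calls numbered 226.

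Genes marked in this way included tegt, an inhibitor of cell death in the endoplasmic reticulum. It was at 1915, 2669 and 1393 in red and 62.2, 59.0 and 72.8 in yellow tails, and at 1204, 651 and 776 in MZCS002 and 103, 66.6 and 69.6 in GRZ-BELL females. All 6 MZCS002 libraries were above all 6 GRZ-BELL libraries (log2 difference 4.88 ± 0.31 between the colours and 3.42 between females, limma adjusted p 1.3e-05 and 0.00011). The gene mycbpap, whose product binds a Myc partner, was at 80.9, 85.1 and 86.0 in red and 0, 1.74 and 2.75 in yellow tails, and the difference of 5.29 ± 0.53 was matched by 5.27 between females. Also higher in MZCS002 of both kinds were mrpl17, of the mitochondrial ribosome (4.58 ± 0.60), pnkd (4.14 ± 0.58), the nucleotidase gene entpd2b (4.40 ± 0.45) and lrrc20, with no read in yellow tails and 29.3, 41.76 and 25.6 in red ones, at least 9.93-fold higher. Lower in both was slc13a1, the sodium-sulfate cotransporter, with no read in any MZCS002 library, 72.3, 86.8 and 61.8 in yellow tails and 108, 127 and 76.6 in GRZ-BELL females. Its mean was at least 30.5-fold lower in red than in yellow tails. Also lower in both were unc13a, which primes synaptic vesicles, with no read in red and 75.3, 31.3 and 82.5 in yellow tails (at least 26.1-fold lower), abcc8, the sulfonylurea receptor subunit of a potassium channel, at 0.861, 0 and 0 and 46.2, 21.7 and 60.5, aldoca, of brain aldolase, at 0, 0.803 and 1.51 and 87.3, 51.2 and 46.7, and atp1a3a, of the neuronal sodium pump, at 0, 0 and 3.77 and 43.2, 41.7 and 24.7. The muscle calcium channel gene ryr1b was at 18.1, 19.3 and 3.02 in red and 197, 212 and 324 in yellow tails, and at 0.898, 0 and 27.19 and 363, 323 and 313 in MZCS002 and GRZ-BELL females. It was the 1 of 9 muscle genes called, where 7.43% of all entries tested were called. The 4 matched skeletal muscle markers of 6 summed to 9.05 to 20.9 in red and 7.03 to 27.5 in yellow tails. Red tails held at most 3 reads of abcc8 and of aldoca, and the ratio of yellow to red means was 149 for abcc8 (95% counting interval 26.3 to 5947) and 80.2 for aldoca (26.2 to 381). Limma adjusted p between the colours was 0.00019 for mycbpap, 5.1e-05 for slc13a1, 0.00036 for unc13a, 0.00073 for abcc8 and 0.019 for ryr1b. The genes tegt, mycbpap, mrpl17, pnkd, entpd2b, lrrc20, slc13a1, unc13a, abcc8, aldoca and atp1a3a kept their calls with each library left out in turn. The call of ryr1b was lost without red 1 or 3 or yellow 1 or 3 (highest limma adjusted p 0.069) and with a pseudocount of 0.1 (highest adjusted p 0.081).

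**Figure D5:**
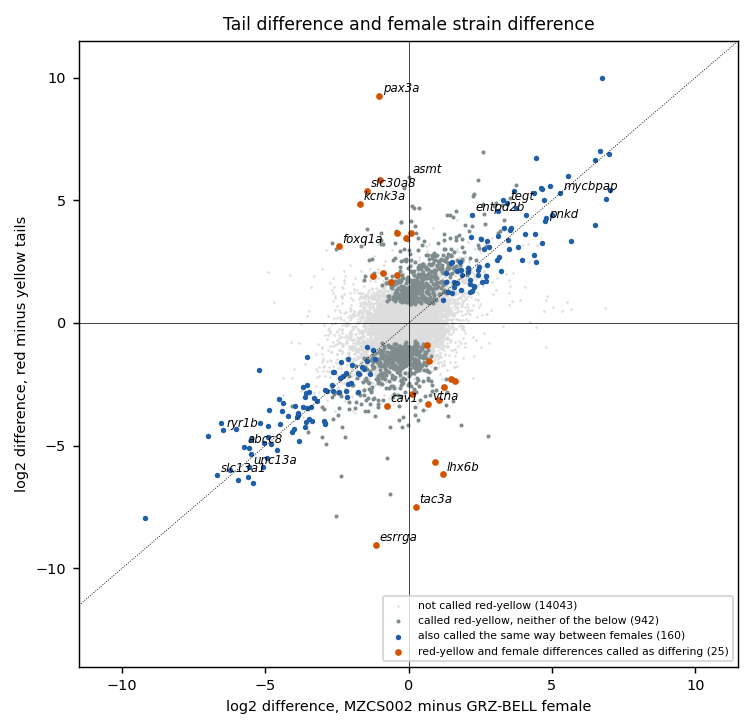
Log2 difference between MZCS002 and GRZ-BELL females on the x axis against that between red and yellow tails on the y axis, 1 point per tested entry, with the line of equal differences dotted. The 160 blue points, also called the same way between females, lie at the upper right and lower left, on both sides of the line. The 25 orange points, among them pax3a and esrrga, were called for the difference between both axes.

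No read was found in one colour for 14 called entries. For 10 of them reads were present only in red tails, 7 of these being also called in females, and for 4 they were present only in yellow tails, 3 being also called in females. Of those with a symbol, asmt and tac3a were not called between females. Testing required a mean of at least 10 over all 12 libraries. Among entries silent in 1 colour, this filter favours those with reads in females, which can raise the counts shared with females. Entries near 0 in all groups but 1, such as pax3a, asmt, esrrga, tac3a, lhx6b and onecut2, passed it through that group alone. A high level there was thus a condition of their test. The largest fitted difference among the tested entries belonged to XM_015970483, which has no symbol in the gene table used. It was at 760.2, 1792 and 769 in red tails, had no read in yellow tails (at least 341-fold higher, limma adjusted p = 0.00012), and was at 138, 748 and 467 in MZCS002 females and 20.0, 0.833 and 0 in GRZ-BELL females. The entry XM_015946284, also without a symbol, was at 0, 0.803 and 3.02 in red and 485, 334 and 656 in yellow tails, had no read in MZCS002 females and was at 785, 929.5 and 274 in GRZ-BELL females (red minus yellow log2 difference -7.94 ± 0.57, limma adjusted p = 2.3e-05). Both entries thus followed strain in all 12 libraries.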

How the data were processed

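RNA-seq of tail fins was analysed in 12 libraries, 3 in each of 4 groups taken from the titles. The authors deposited a signal for each RefSeq transcript, that is, counts that were scaled by size factors. The submitters' processing notes name Trimmomatic, STAR, featureCounts and DESeq2. Versions, genome build and strand setting were not given in the sources used here, so antisense and near-identical genes may share reads. Whole reads were recovered from the smallest steps of the values, 100% of them whole within 0.01 read. Totals ran from 5495553 to 17053983. Intervals and floors cover counting error only, since PCR copies without molecular identifiers do not count as independent molecules. Symbols were looked up by accession in RefSeq's genes of the assembly NfurGRZ-RIMD1, which matched 14145 entries (68.0%), 10617 with a symbol. Of 20788 entries, 534 had no read and 14 shared a symbol with another.

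Entries with a mean of at least 10 were tested with limma 3.58.1 in R 4.3.3 (eBayes with a trend) on log2(value + 1), 1 fit of 4 groups, at a Benjamini-Hochberg adjusted p under 0.05. Log2 differences are on this scale, which tends to understate changes of low genes. They compare means of logs, so they can also exceed the ratio of means, as for slc30a1a. Every adjusted p is from this fit unless another tool is named. The contrasts were red minus yellow tail, MZCS002 minus GRZ-BELL female, and the difference of these. Lower bounds for a group without reads use 3 reads per library, and 1 to 3 reads get a 95% counting interval. Nothing states that the libraries of a group came from separate cultures or animals beyond the word replicate, so p-values measure the spread between these samples.

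Alternatives were edgeR 4.0.16 and DESeq2 1.42.0 on recovered reads, other pseudocounts, filters and scalings, a fit to 6 libraries, a replicate block and leaving out each library. The fit was tested on simulated data. The members and gene lists were chosen with earlier results of these data known. Named genes were the 12 called genes with a symbol and largest difference each way without overlap, the 6 most abundant each way, the 6 largest each way also called in females, up to 8 each way called for the difference against females, called list members (up to 8 for pigment lists, 4 for others) and 42 genes of interest, of which 38 were tested (slc24a5, mc1r, kita and scarb1 had no match). A few genes that this rule names are not reported here. Genes mcm2, mcm4, mcm5, mcm6, mcm7, fasn, scd and elovl6 and both entries without a symbol were named after their values were seen. A part of the rule for genes without a symbol, and a promoter motif search, were not run, as product names and sequences were not used here.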

Additional observations from a re-analysis of the deposited data

Results flagged for a closer look

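The difference between the red-yellow and the female strain differences was tested in the same limma fit, and 27 entries passed at an adjusted p under 0.05. Of them, 25 were also called between the colours, 20 with a symbol, and the 16 described above, the 8 in each direction with the largest red-yellow difference, are given here as red-yellow minus female log2 difference. Above 0 were pax3a at 10.3 (adjusted p = 0.0048), slc30a8 at 6.84 (0.0084), kcnk3a at 6.55 (0.047), foxq1a at 5.56 (0.012), il34 at 4.07 (0.022), mc5ra at 3.58 (0.047), slc39a6 at 3.56 (0.0091) and mreg at 2.37 (0.045). Below 0 were esrrga at -7.90 (0.0054), tac3a at -7.75 (0.012), lhx6b at -7.38 (0.034), onecut2 at -6.57 (0.037), trpc4a at -4.20 (0.034), vtna at -3.98 (0.037), armh4 at -3.85 (0.049) and cav1 at -2.64 (0.037). Fitted differences of pax3a, esrrga, tac3a, lhx6b and onecut2 depend on the pseudocount, since groups at or near 0 reads enter them. That of kcnk3a does too, as MZCS002 female 2 was at 0 beside 12.6 and 12.9 in the other MZCS002 females. A read counted as 3.14 normalized reads in that library. The calls of pax3a, slc30a8, slc39a6 and esrrga held with each library left out in turn. That of foxq1a was lost without red 2 (limma adjusted p = 0.051) and that of tac3a without yellow 2 or yellow 3 (highest limma adjusted p = 0.096). The other 10 lost the call without 7 to 10 of the 12 libraries, with highest limma adjusted p of 0.09 for il34 to 0.17 for onecut2. In edgeR, lhx6b and tac3a were not called for this difference (adjusted p 0.061 and 0.15).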

How the results depend on the processing

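The count of 1127 red-yellow calls was 2350 in DESeq2 and 1767 in limma on only the 6 tail libraries, and ran from 342 to 2616 with a library left out. Other settings gave 835 to 1302. The female count of 264 was 808 in DESeq2 and 145 with a minimum mean of 50, and ran from 111 to 358 with a library left out. The count of 27 for the difference of differences was 625 in DESeq2, 13 with a minimum mean of 50, 6 and 68 with pseudocounts of 0.1 and 10, and 7 to 134 with a library left out. Directions reversed for genes without a call: csf1ra (-0.0052 with quantile normalization and -0.062 to 0.38 with a library left out, negative without yellow 1), pnp5a (-0.26 to 0.83, negative without red 2 or, at -0.15, yellow 3), and asip1 (-0.30 to 1.12) and lpla (-0.080 to 0.19), both negative without yellow 2. The cause was not tested. Scaling to equal totals moved the median of all entries from -0.01 to 0.09, and turned the sign of the medians of the immune, melanocortin and position lists. Correlations of deviations between red and yellow libraries were 0.152, 0.17 and 0.036 for equal replicate numbers and -0.174 to 0.073 for other numbers. Red 3 correlated better with yellow 2 (0.052) than with yellow 3. Whether equal numbers mark paired libraries is not stated in the labels and was not settled here. With the replicate block there were 835 red-yellow calls, 210 female calls and 14 for the difference.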
